A study of Homo sapiens with 35 samples.

Results

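The comparison described here sets the transcriptome of RPMI-8226 cells on day 10 after a proteasome inhibitor pulse against that of the same culture on day 6. RPMI-8226 is an established human multiple myeloma line, a plasma cell cancer that secretes large amounts of immunoglobulin light chain. Cells were exposed to 750 nM carfilzomib, an irreversible proteasome inhibitor, for 1 h, washed and grown on without drug. RNA was sequenced on days 0, 1, 2, 4, 6, 8 and 10, with 5 libraries per day. The members are therefore the 5 libraries labelled Day 10 and the 5 labelled Day 6, 10 of the 35 libraries, read over protein-coding entries. Both groups had received the same 750 nM, 1 h pulse, so the comparison holds the treatment constant and asks what still changed late in the recovery period.

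The 5 libraries of a day came from subcultures split from 1 expanded culture, so each p-value measures the spread between subcultures of a single line. Medium was replaced every 48 h, cells were brought back to a fixed density on days 6 and 8, and the samples of days 6, 8 and 10 were taken just before a medium change. Culture history and time since the pulse therefore cannot be told apart, and no untreated culture carried to day 10 was analysed here. Library totals ran from 7823941 to 9744769 estimated counts on day 6 and from 6979280 to 8894446 on day 10. Of 19665 protein-coding entries, 17999 had a count in at least 1 library after the estimated counts were rounded to whole numbers, and were tested.

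Under proteasome inhibition a myeloma cell makes more proteasome subunits and chaperones. Phosphorylation of the initiation factor eIF2 can curb protein synthesis and turn on genes for amino acid uptake and synthesis through the transcription factor ATF4. The study describes this ATF4 signalling as inactive for a short time after the pulse and increasingly active again during recovery. In the oxygen-sensing pathway, prolyl hydroxylases mark the transcription factor HIF for destruction when oxygen is plentiful. HIF raises glycolytic enzymes, mitophagy receptors and collagen hydroxylases when oxygen is scarce. Cells entering S phase raise the MCM helicase and other E2F target genes, and cells building biomass raise the nucleolar factors that make ribosomes.

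The day 10 and day 6 libraries differed by many small changes and few large ones. At a Benjamini-Hochberg adjusted p (Q) of 0.05 or less in edgeR's quasi-likelihood test, 858 entries were higher on day 10, 4.77% of those tested, and 828 were lower, 4.6%. The median log2 fold change was 0.31 among the higher entries and -0.36 among the lower. When a fold above 2 was also required, 19 entries were called higher, 0.106%, and 58 lower, 0.322%. In 675 entries, 3.75%, all 5 day 10 libraries lay above all 5 day 6 libraries, and in 728, 4.04%, all lay below. The large changes were thus mostly decreases, with a median log2 fold change of -1.26 among the 58 and 1.5 among the 19. Among the 12301 entries that passed edgeR's filter for enough counts, 853 rose and 819 fell at Q, larger shares than over all entries. In 665 of these all day 10 libraries lay above all day 6 libraries, and in 716 all lay below. Most gene lists below hold mainly such entries, so the shares over all entries are a low yardstick for them.

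**Figure D1:**
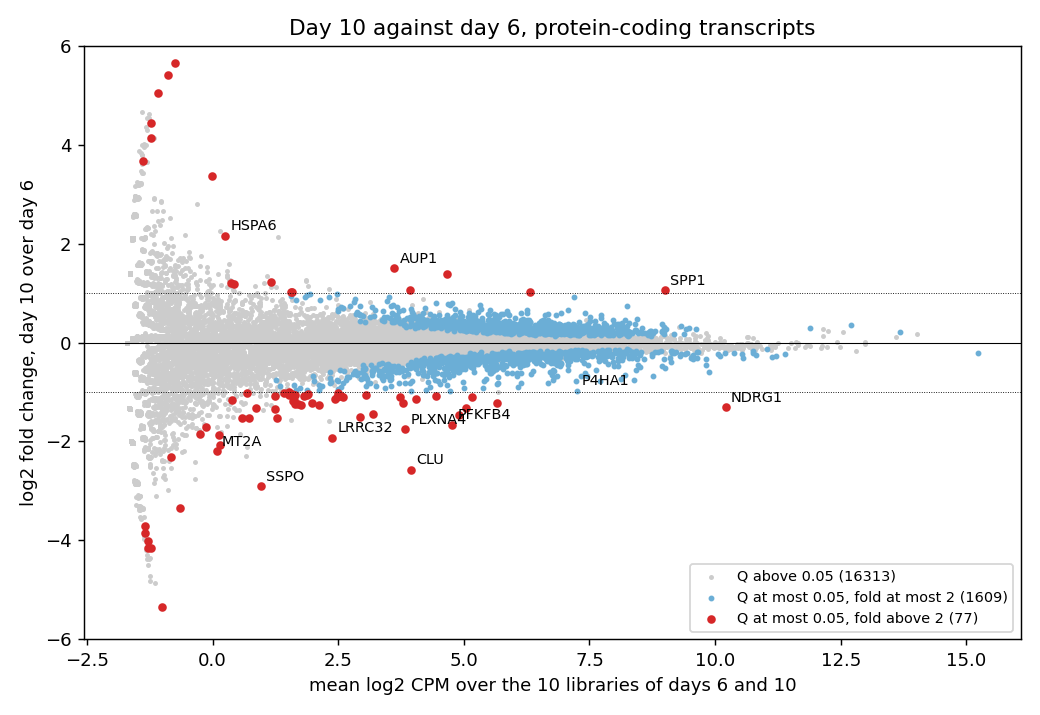
Mean level of each protein-coding entry (x axis, log2 CPM, counts scaled to a common library size) against its log2 fold change, day 10 over day 6 (y axis). Points are grey for 16313 entries not past Q, blue for 1609 past Q only and red for 77 past Q with a fold above 2 (dotted lines), 1 point lies outside the plotted range, and most red points lie below 0.

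Some of these calls depended on how the deposited table splits a gene into biotypes. A symbol has separate entries for its protein-coding and its noncoding isoforms, and reads can be assigned to either. When the counts of a symbol were summed over its biotypes, 42 of the 77 calls held in the same direction, 5 of the 19 higher and 37 of the 58 lower. At Q alone, 55 of the 77 held in the same direction. The summed counts gave 1149 higher and 1092 lower at Q. The list counts below rest on the protein-coding entries. AUP1, of lipid droplets and ER degradation, read 1.5 ± 0.47 in its protein-coding entry (Q = 0.0333) and 0.04 summed. That entry held 4.98% of its counts on day 6 and 13.7% on day 10, and its call was lost without Day 6 replicates 2 or 4 or Day 10 replicates 1 or 4 (Q up to 0.097). SSPO read -2.91 ± 0.74 (Q = 0.00817) in an entry that went from 60.3% to 7.88% of its counts, and 0.02 summed. The RNA helicase DDX5, the splicing kinase PRPF4B and the cytochrome oxidase factor COX11, chosen after their values were seen, read 1.02, 1.39 and 1.07, and 0.04, 0.09 and 0.18 summed. The call on COX11 was lost without Day 10 replicate 2 (Q = 0.0504). TNNT3, a troponin gene, fell on both scales, at -2.07 ± 0.54 (Q = 0.0089) and -0.98 summed (Q = 0.0443). VSIG10L read -1.87 ± 0.61 (Q = 0.0439) and -0.17 summed, and lost its call in 8 of 10 fits that left out a library, all but those without Day 6 replicate 1 or Day 10 replicate 3 (Q up to 0.13). By contrast CLU read -2.10 summed (Q = 2.04e-22) and NDRG1 -1.23 (Q = 2.86e-13).

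CLU had the smallest adjusted p of all entries that fell. It encodes clusterin, a chaperone found outside and inside the cell. The gene measured 37, 38.1, 42.1, 33.9 and 33.6 CPM (counts scaled to a common library size) in the 5 day 6 libraries, and 7.56, 7.67, 4.52, 5.96 and 5.13 on day 10. Every day 10 library lay far below every day 6 library, and the day 8 libraries, at 10.2 to 21.1 CPM, lay between them. Its log2 fold change was -2.57 ± 0.15 (SE), with Q = 6.75e-16, and its mean on day 0 had been 2.04 CPM.

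LRRC32 (chr11:76657524-76670747, minus strand, GENCODE 44 on GRCh38), which holds latent TGF-beta at the cell surface, stood at 11.9, 10.2, 8.52, 10.9 and 6.61 CPM on day 6 and at 2.64, 2.84, 1.78, 2.14 and 3.21 on day 10. The groups did not overlap, with a log2 fold change of -1.92 ± 0.33 and Q = 6.88e-05. PLXNA4 (chr7:132123340-132648688, minus strand), a plexin that pairs with semaphorin receptors, took another path. It read 28, 23.5, 26.2, 30.3 and 20.4 CPM on day 6, rose to between 36.7 and 47.3 on day 8, and read 6.68, 6.82, 9.69, 6.88 and 8.18 on day 10. The day 10 values were below all those of days 6 and 8, at -1.75 ± 0.13 against day 6 with Q = 1.6e-12.

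Several further transcripts fell with no overlap between days. TNS1, which links integrins to actin, fell from 12.3 ± 1.52 (SD, n = 5) to 4.34 ± 0.656 CPM, a log2 fold change of -1.50 ± 0.20 (Q = 9.97e-07). The tetraspanin gene TSPAN9 fell from 24 ± 1.39 to 10.9 ± 1.33 CPM (-1.13 ± 0.09, Q = 1.35e-11). GATM, the enzyme that commits arginine and glycine to creatine synthesis, fell from 362 ± 12.7 to 217 ± 14.1 CPM (-0.74 ± 0.06, Q = 7.64e-12). The low-count genes HIC1, a transcriptional repressor, and ZNF404, a zinc finger gene, also fell, both by 1.52 on the log2 scale, from means of 2.04 and 2.32 CPM to 0.693 and 0.796. The chemokine gene CXCL8 fell from 20.7 ± 2.97 to 8.81 ± 1.36 CPM (-1.23 ± 0.19, Q = 1.66e-05).

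Hypoxia-responsive genes were the clearest group to fall. Of 22 members of the hypoxia list, 12 fell at Q and 0 rose, against 4.6% lower over all entries, and the median log2 fold change was -0.40 beside 0.00 over all entries tested. In 12 of the 22 members all day 10 libraries lay below all day 6 libraries, against 4.04% over all entries. Of the 22, 10 did not pass the test, among them VEGFA, the angiogenic growth factor, at -0.25 ± 0.09 (Q = 0.0758) and CA9, a cell-surface carbonic anhydrase, at 0.14 ± 0.10 (Q = 0.501).

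NDRG1, a stress and hypoxia-induced gene, read 2027, 2114, 1839, 1853 and 1522 CPM on day 6 and 676, 716, 825, 818 and 746 on day 10. That is a log2 fold change of -1.31 ± 0.11 (Q = 2.52e-11), and every day 10 value lay below every day 6 value. P4HA1 (chr10:73007217-73096974, minus strand), the catalytic subunit of collagen prolyl 4-hydroxylase, fell from 227, 234, 211, 204 and 187 CPM to 102, 114, 122, 105 and 98.8 (-0.97 ± 0.08, Q = 4.27e-12). These groups did not overlap either.

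The mitophagy receptor BNIP3 went from 67.5 ± 6.53 to 37.8 ± 4.96 CPM (-0.84 ± 0.08, Q = 1.43e-09), and its relative BNIP3L from 129 ± 4.88 to 85.3 ± 4.61 (-0.60 ± 0.05, Q = 2.55e-10). PPFIA4, a liprin scaffold gene induced by HIF, went from 52.2 ± 8.55 to 24.4 ± 2.06 CPM (-1.10 ± 0.14, Q = 4.3e-07). EGLN1 encodes the prolyl hydroxylase that marks HIF and is itself a HIF target. It read 82.4 ± 5.26 CPM on day 6 and 54.2 ± 5.64 on day 10 (-0.61 ± 0.09, Q = 1.55e-05). Histone demethylases of the oxygen-dependent kind were lower as well. KDM4B fell by 0.76 on the log2 scale (SE 0.06, Q = 7.79e-12). KDM3A read -0.32 ± 0.11 (Q = 0.0462), a call that was lost in 8 of 10 fits that each left out a library, with Q up to 0.13; only without Day 6 replicate 5 or Day 10 replicate 3 did it hold.

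The core HIF recognition letters ACGTG, read on both strands, were counted in the 250 bases before each RefSeq gene start (GRCh38.p14). They were present in 18.7% of all 27305 promoters and in 23.4% of the 10020 promoters of well-counted tested transcripts. Of the 17 hypoxia-list promoters that could be matched, 12 held them, 70.6%, and of 9 matched members that fell, 6 did. In the glycolysis list 8 of 22 matched promoters held them, 36.4%. The lists were drawn up as HIF targets, so a high share describes the lists and not these data, and the ACGTG letters overlap the E-box CACGTG. The window of P4HA1 held a match within an annotated exon and that of PFKFB4 held none. Shown are 4 promoter stretches of members that fell, each ending at the nearest annotated exon or gene start, with matches in capitals. They are EGLN1 at chr1:231422288-231422537 on the minus strand, PPFIA4 at chr1:203026241-203026490 on the plus strand, BNIP3 at chr10:131981968-131982173 on the minus strand and LDHA at chr11:18394313-18394559 on the plus strand.
EGLN1: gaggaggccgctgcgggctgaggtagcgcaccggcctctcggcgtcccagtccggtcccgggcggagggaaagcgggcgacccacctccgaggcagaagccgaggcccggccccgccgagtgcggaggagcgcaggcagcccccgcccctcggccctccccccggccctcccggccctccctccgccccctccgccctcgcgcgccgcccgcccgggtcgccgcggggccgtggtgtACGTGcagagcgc
PPFIA4: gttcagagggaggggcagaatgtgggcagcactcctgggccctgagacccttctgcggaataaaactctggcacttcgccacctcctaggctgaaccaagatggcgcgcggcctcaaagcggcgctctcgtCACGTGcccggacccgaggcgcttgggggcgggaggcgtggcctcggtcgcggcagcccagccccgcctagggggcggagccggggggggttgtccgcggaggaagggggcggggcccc
BNIP3: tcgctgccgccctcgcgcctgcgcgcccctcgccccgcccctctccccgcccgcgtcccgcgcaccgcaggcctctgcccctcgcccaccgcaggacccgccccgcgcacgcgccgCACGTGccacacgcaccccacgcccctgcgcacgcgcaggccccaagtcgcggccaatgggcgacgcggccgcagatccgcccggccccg
LDHA: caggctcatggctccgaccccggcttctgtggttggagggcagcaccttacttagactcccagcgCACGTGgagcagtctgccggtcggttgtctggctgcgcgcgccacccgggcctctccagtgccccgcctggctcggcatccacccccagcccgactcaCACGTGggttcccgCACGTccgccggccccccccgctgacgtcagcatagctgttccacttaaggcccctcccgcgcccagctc
In BNIP3 and PPFIA4 the match is the palindrome CACGTG, which reads the same on both strands, and LDHA holds 3 matched stretches.

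Glycolytic enzymes moved the same way by smaller amounts. Of 25 members, 12 fell at Q and 1 rose, against 4.6% and 4.77% over all entries, with a median log2 fold change of -0.21. Summed over the list, the members measured 15801 to 17305 CPM on day 6 and 13393 to 14575 on day 10, ranges that did not overlap. The glycolysis and hypoxia lists share no member.

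PFKFB4 (chr3:48517684-48562015, minus strand), which sets the level of the glycolytic activator fructose 2,6-bisphosphate, changed most. It read 50.9, 51.5, 49.3, 47 and 43.4 CPM on day 6 and 10.7, 12.9, 15.3, 19.9 and 17.5 on day 10, with no overlap (-1.66 ± 0.16, Q = 5.3e-10). The neuron-type glucose transporter SLC2A3 fell by 0.90 on the log2 scale (SE 0.20, Q = 0.00175), and the enolase ENO2 by 0.86 (SE 0.11, Q = 1.03e-06). LDHA, which makes lactate from pyruvate, fell from 1205, 1296, 1157, 1178 and 1221 CPM to 898, 986, 1020, 1038 and 1045 (-0.28 ± 0.05, Q = 0.000405), again without overlap. The lactate importer and exporter gene SLC16A1 was the member that rose, by 0.25 ± 0.06 (Q = 0.00266).

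HK2, the hexokinase of fast-growing cells, was lower by 0.38 on the log2 scale (Q = 0.0265), a call lost without Day 6 replicate 1, Day 6 replicate 2, Day 10 replicate 1 or Day 10 replicate 2 (Q up to 0.0988). The general glucose transporter SLC2A1 read -0.32 ± 0.15 (Q = 0.196) in its protein-coding entry. Its counts summed over all biotypes gave -0.43 with Q = 0.00418.

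**Figure D2:**
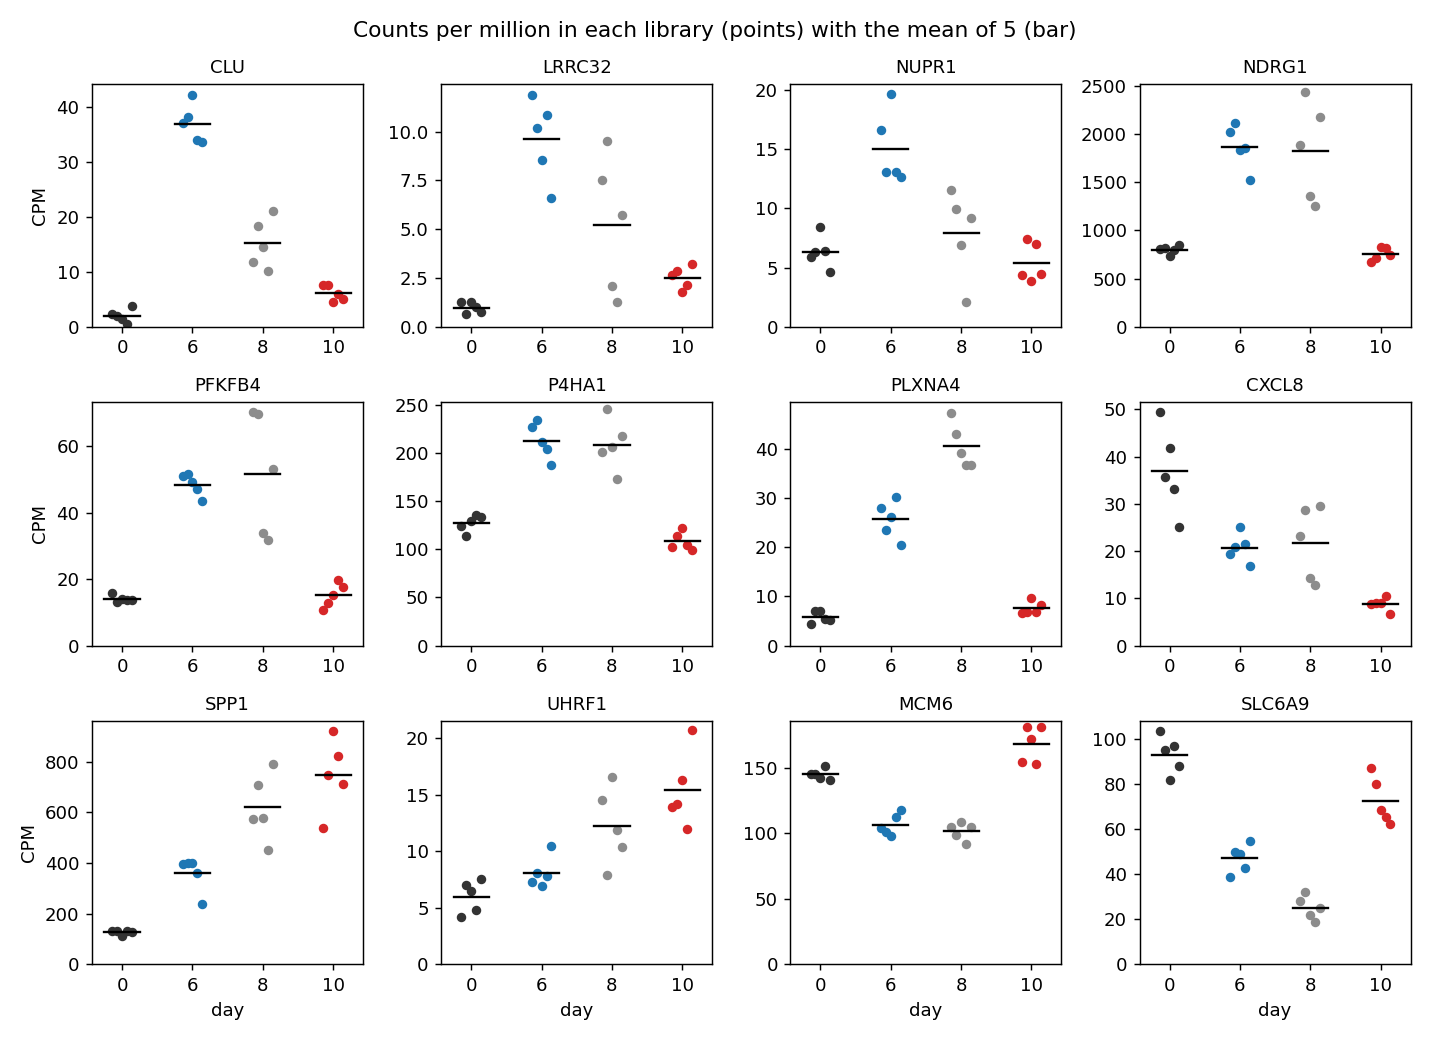
CPM of 12 transcripts in each of the 5 libraries of days 0, 6, 8 and 10 (points, with bars for group means, each panel on its own axis). CLU, LRRC32, NUPR1, NDRG1, PFKFB4, P4HA1, PLXNA4 and CXCL8 sit lower on day 10 than on day 6, SPP1, UHRF1, MCM6 and SLC6A9 higher, and SLC6A9 dips on day 8, to 18.8 to 32.2 CPM.

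Of 50 genes of DNA replication, 19 rose at Q, 2 fell and 29 did not pass, against 4.77% rising over all entries, and the median log2 fold change was 0.29. All 6 subunits of the MCM2-7 helicase, the ring that unwinds DNA, rose. MCM6 (chr2:135839626-135876443, minus strand) read 104, 101, 97.9, 112 and 118 CPM on day 6 and 155, 181, 172, 153 and 181 on day 10. The day 10 values were all higher, with a log2 fold change of 0.66 ± 0.06 and Q = 3.56e-11.

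The other subunits rose by 0.46 ± 0.08 for MCM2, 0.59 ± 0.06 for MCM3, 0.66 ± 0.07 for MCM4, 0.60 ± 0.07 for MCM5 and 0.36 ± 0.09 for MCM7, with Q from 5.16e-09 for MCM3 to 0.00443 for MCM7. UHRF1, which carries DNA methylation onto new strands, rose from 8.1 ± 1.41 to 15.4 ± 3.34 CPM (0.92 ± 0.16, Q = 5.7e-05). The transcription factor E2F1 rose from 12.5 ± 1.61 to 19.2 ± 1.62 CPM (0.63 ± 0.11, Q = 0.000122). The sliding clamp PCNA rose by 0.45 ± 0.07 (Q = 3.38e-05), though its day 10 mean of 85.7 CPM was under its day 0 mean of 169.

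The members that fell were RRM2, a ribonucleotide reductase subunit, at -0.29 ± 0.07 (Q = 0.00615), and CDT1, which licenses origins, at -0.30 ± 0.08 (Q = 0.0088). Without Day 6 replicate 5 the call on CDT1 was lost, at Q = 0.0607. In bulk RNA, fewer cells in a phase and less RNA per cell cannot be told apart, so these values do not separate more cells in S phase from more RNA in each.

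The E2F letters TTTGGCGC or TTTCCCGC, on both strands, were present in 1.96% of all promoters and 3.12% of those of well-counted transcripts. They were in 13 of 43 matched DNA replication promoters, 30.2%, and in 7 of the 16 matched members that rose. The list holds textbook E2F targets, so this share too describes the list. The window of MCM2, which rose, held no E2F letters. Those of MCM7 and UHRF1 held a match only at or past an annotated exon start, so they are not shown. Shown are the stretches of 4 members that rose, MCM6 at chr2:135876444-135876693 on the minus strand, MCM3 at chr6:52284882-52284992 on the minus strand, PCNA at chr20:5126627-5126872 on the minus strand and E2F1 at chr20:33686386-33686635 on the minus strand, with E2F matches in capitals.
MCM6: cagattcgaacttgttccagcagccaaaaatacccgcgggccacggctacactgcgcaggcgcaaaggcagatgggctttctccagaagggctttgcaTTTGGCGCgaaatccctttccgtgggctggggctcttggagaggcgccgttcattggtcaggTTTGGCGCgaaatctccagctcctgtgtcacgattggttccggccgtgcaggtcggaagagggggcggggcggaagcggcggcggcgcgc
MCM3: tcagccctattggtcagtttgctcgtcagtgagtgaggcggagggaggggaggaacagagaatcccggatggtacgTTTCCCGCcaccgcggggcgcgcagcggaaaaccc
PCNA: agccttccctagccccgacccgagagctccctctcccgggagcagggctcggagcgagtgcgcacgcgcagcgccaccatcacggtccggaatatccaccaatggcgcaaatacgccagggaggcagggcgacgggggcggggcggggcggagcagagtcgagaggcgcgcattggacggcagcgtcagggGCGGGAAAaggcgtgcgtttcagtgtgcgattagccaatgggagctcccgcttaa
E2F1: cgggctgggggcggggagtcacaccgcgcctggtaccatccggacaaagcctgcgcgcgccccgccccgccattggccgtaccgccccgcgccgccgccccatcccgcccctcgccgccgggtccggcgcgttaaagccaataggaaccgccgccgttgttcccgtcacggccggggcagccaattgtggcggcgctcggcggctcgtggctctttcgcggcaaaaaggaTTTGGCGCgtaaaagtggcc
MCM6 carries TTTGGCGC in 2 places, and the PCNA match is TTTCCCGC read on the opposite strand.

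Replication-dependent histone transcripts went the other way. Of 66 entries, 13 fell and 0 rose, against 4.6% and 4.77% over all entries, with a median log2 fold change of -0.55. Only 32 of the 66 had enough counts, and 3 had no count on either day, so that median includes many members near the floor. Over the 32, the mean log2 CPM on day 10 relative to day 6 was -0.42. In 11 of the 66 all day 10 libraries lay below all day 6 libraries, against 4.04% over all entries. HIST1H4E fell from 12.7 ± 2.65 to 6.89 ± 1.11 CPM (-0.88 ± 0.19, Q = 0.00166). Histone genes are near-identical copies that share reads, so single members are uncertain, and their mRNA lacks a poly(A) tail, so its capture varies with library preparation. Of 45 mitosis genes, 0 rose and 2 fell, beside 4.77% and 4.6% over all entries. No fall of the mitosis list is read from these counts. The spindle kinesin KIF2C was among those that fell, at -0.23 ± 0.07 (Q = 0.0304). Its call was lost without any of 5 libraries, Day 6 replicates 1 and 5 and Day 10 replicates 1, 2 and 3 (Q up to 0.155).

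Ribosome biogenesis had the highest share of risen members among the lists described here. Of 42 members, 24 rose at Q and 3 fell, against 4.77% and 4.6% over all entries, with a median log2 fold change of 0.30. In 23 of the 42 all day 10 libraries lay above all day 6 libraries, against 3.75% over all entries. UTP20, a component of the small-subunit processome, read 36.8, 34.6, 31.8, 41.6 and 36 CPM on day 6 and 52.8, 56.2, 59.1, 51 and 66.6 on day 10 (0.66 ± 0.08, Q = 5.37e-08). RRP12, needed to export pre-ribosomes, read 85.9, 80.7, 89, 74.6 and 90.6 CPM and then 143, 128, 112, 118 and 124 (0.57 ± 0.06, Q = 4.17e-09). Neither gene overlapped between days.

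Nucleolin, NCL, rose from 713 ± 26.1 to 857 ± 35.1 CPM (0.27 ± 0.05, Q = 0.000378) and the rRNA methyltransferase NOP2 from 44.1 ± 10.4 to 66.1 ± 6.68 (0.58 ± 0.13, Q = 0.00194). NOB1, the nuclease that trims small-subunit rRNA, was a member that fell, at -0.26 ± 0.06 (Q = 0.00177). Nucleophosmin, NPM1, read -0.17 (Q = 0.0238), a call lost without Day 6 replicates 3 or 5 or Day 10 replicates 1 or 5 (Q up to 0.113). The E-box CACGTG, which MYC binds, was in 4 of 36 matched promoters of the list, 11.1%, beside 8.9% of well-counted transcripts. Among matched members that rose it was in 3 of 21, 14.3%. MYC itself read 0.09 ± 0.06 (Q = 0.449).

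Genes for the proteins of the ribosome itself passed the test less often than ribosome biogenesis genes. Of 77 cytosolic ribosomal protein genes, 0 rose and 0 fell at Q in edgeR, 8 were lower and 0 higher at an unadjusted p of 0.05, and DESeq2 called 0. The point estimate was below 0 in 74 of 77, with a median of -0.08, and in 8868 of 17999 over all entries. Relative to the day 6 mean, the list mean per library ran from -0.07 to 0.06 on day 6 and from -0.21 to 0.01 on day 10. These ranges overlapped. Of 77 mitochondrial ribosomal protein genes, 8 rose and 2 fell, beside 4.77% and 4.6% over all entries. The count of 8 became 4 without Day 6 replicate 3. MRPL10 fell by 0.28 on the log2 scale (SE 0.07, Q = 0.00685).

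Most genes of amino acid supply that passed the test rose from day 6 to day 10, and most that departed from the midpoint of these days on day 8 lay below it. The day 8 libraries were uneven. Day 8 replicates 3 and 4 stood apart from replicates 1, 2 and 5, with mean hypoxia-list levels of -0.66 and -0.75 against -0.12 to 0.03 on the log2 scale, relative to day 6. Their glycolysis levels were -0.12 and -0.15 against 0.00 to 0.20. Counts of day 8 calls are therefore given with and without these 2 libraries.

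**Figure D3:**
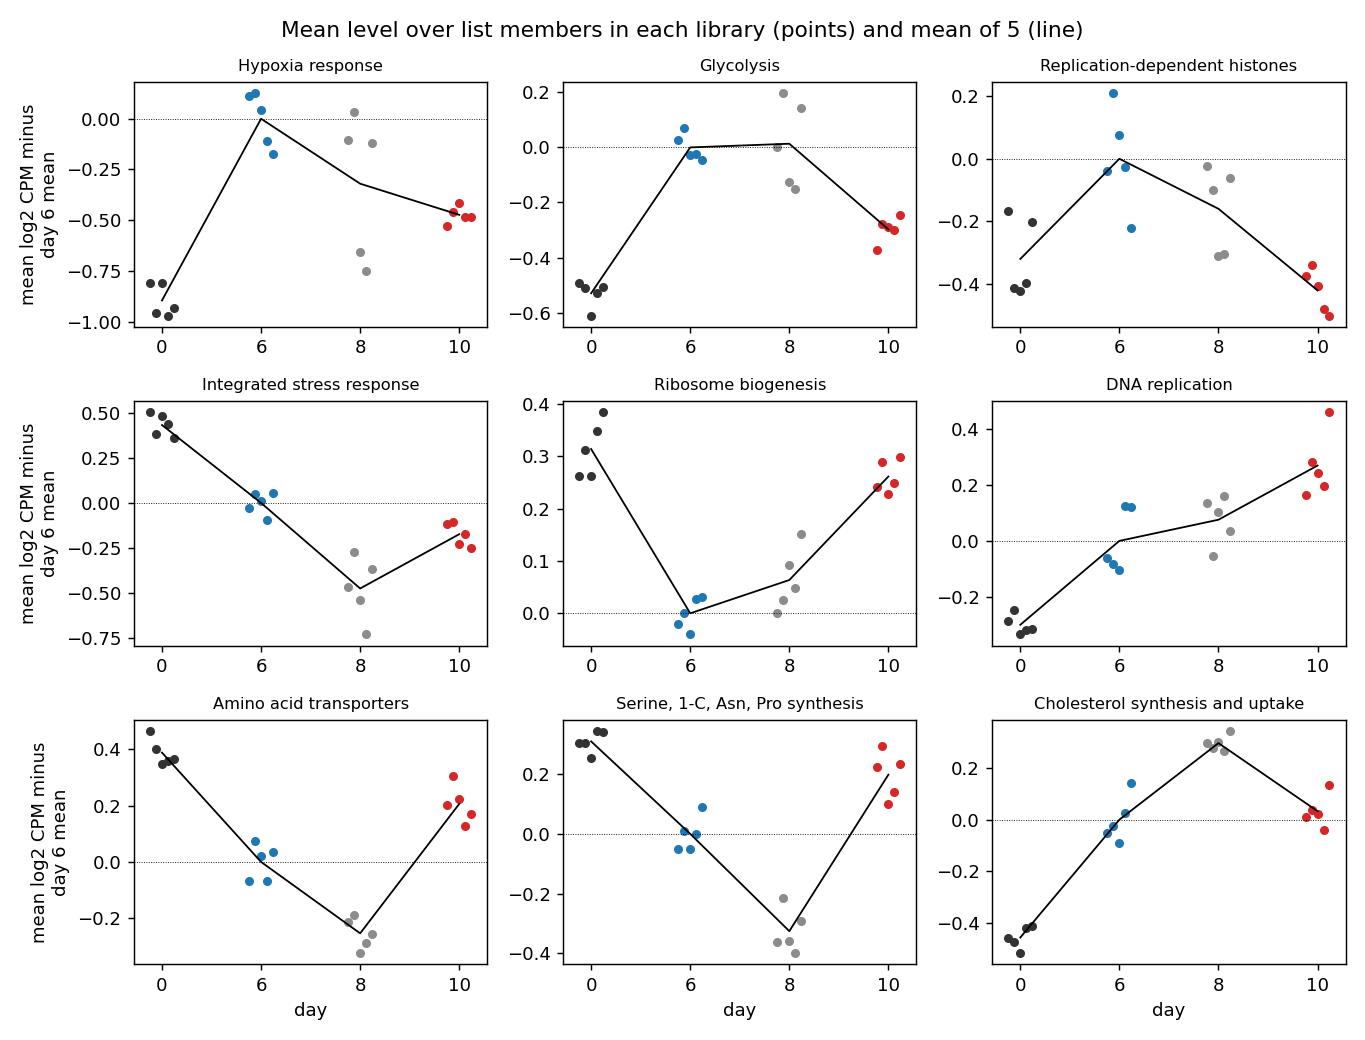
Mean log2 CPM of 9 gene lists in each library, relative to the day 6 mean of that list (y axis), by day (x axis), with points for the 5 libraries of each day and a line through their means. Hypoxia and glycolysis fall from day 6 to day 10, ribosome biogenesis and DNA replication rise, and the amino acid and stress response lists dip on day 8, when cholesterol synthesis is at 0.30, above days 6 and 10.

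Of 19 amino acid transporters, 9 rose and 1 fell at Q, against 4.77% and 4.6% over all entries, with a median of 0.22. SLC6A9 (chr1:43991500-44031467, minus strand), the glycine transporter, read 38.8, 50, 49, 42.7 and 54.6 CPM on day 6, 28.3, 32.2, 21.8, 18.8 and 24.9 on day 8, and 87.2, 80, 68.3, 65.6 and 62.1 on day 10. The 3 days did not overlap. Day 10 was above day 6 by 0.63 ± 0.10 on the log2 scale (Q = 4.34e-05), and day 8 was below the midpoint of the days around it by 1.21 (Q = 1.45e-11).

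The cystine importer SLC7A11 read 89.4, 53.8 and 118 CPM on average on days 6, 8 and 10, with day 10 above day 6 by 0.39 ± 0.08 (Q = 0.000915). The heteromeric transporter SLC7A7 was the member that fell, at -0.61 ± 0.17 (Q = 0.0122), a call lost without Day 6 replicate 3 or Day 10 replicate 5 (Q up to 0.0711).

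Enzymes of serine, folate-cycle, asparagine and proline synthesis followed the same course, with a median of 0.23. Of these 19, 10 rose and 1 fell, against 4.77% and 4.6% over all entries. PSAT1, of serine synthesis, read 142, 167, 172, 168 and 194 CPM on day 6 and 234, 262, 215, 215 and 209 on day 10 (0.43 ± 0.08, Q = 0.000426), with no overlap and a day 8 mean of 95.4. PCK2, the mitochondrial PEP carboxykinase, rose by 0.37 ± 0.08 (Q = 0.00246) and PYCRL, of proline synthesis, by 0.56 ± 0.09 (Q = 1.49e-05). Glutamine synthetase, GLUL, was the member that fell, from 64.7 ± 7.98 to 40.1 ± 2.35 CPM (-0.69 ± 0.10, Q = 1.68e-06).

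Asparagine synthetase, ASNS, averaged 341, 193 and 382 CPM on the 3 days. Its change from day 6 to day 10 was 0.16 ± 0.06 (Q = 0.108), and without Day 6 replicate 5 it was 0.23 (Q = 0.0133). Of 20 cytosolic tRNA synthetases, which charge tRNAs with amino acids, 9 rose and 1 fell, against 4.77% and 4.6% over all entries. The histidine enzyme HARS rose by 0.31 ± 0.08 (Q = 0.00695) and the aspartate enzyme DARS fell by 0.24 (SE 0.05, Q = 0.00136). The letters TGATGCAA, the core of the amino acid response element, were counted in promoters on both strands. They were in 0 of 18 matched transporter promoters, SLC6A9 among them, and in 0.409% of those of well-counted transcripts. The synthesis and tRNA synthetase lists each held them in 2 of 12, 16.7%. These shares describe the lists.

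In the integrated stress response list, the changes that passed were mostly decreases. Of 25 members, 6 fell and 1 rose at Q, against 4.6% and 4.77% over all entries, with a median of -0.09. The count of 6 became 3 without Day 6 replicate 2. ATF4 averaged 821 ± 46 CPM on day 6 and 667 ± 43.7 on day 10 (-0.30 ± 0.05, Q = 0.000117), and its values did not overlap. ATF3, a stress-induced partner of ATF4, read 28, 27.9, 28.2, 25 and 27.9 CPM, then 15, 16.1, 16.6, 16.8 and 17 (-0.75 ± 0.13, Q = 0.000128), also without overlap.

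The stress-induced chromatin protein gene NUPR1 fell from 15 ± 3.06 to 5.44 ± 1.64 CPM (-1.45 ± 0.29, Q = 0.000588). DDIT3, which encodes CHOP, read -0.46 ± 0.13 (Q = 0.0161), a call lost without Day 6 replicate 2 or Day 10 replicate 5 (Q up to 0.0667). The ATF4 targets TRIB3 and CHAC1 read -0.13 ± 0.10 (Q = 0.515) and -0.29 ± 0.14 (Q = 0.227). EIF2AK4, the kinase GCN2 that senses uncharged tRNA, rose by 0.20 ± 0.06 (Q = 0.0159), a call lost without Day 6 replicate 3 (Q = 0.0805).

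**Figure D4:**
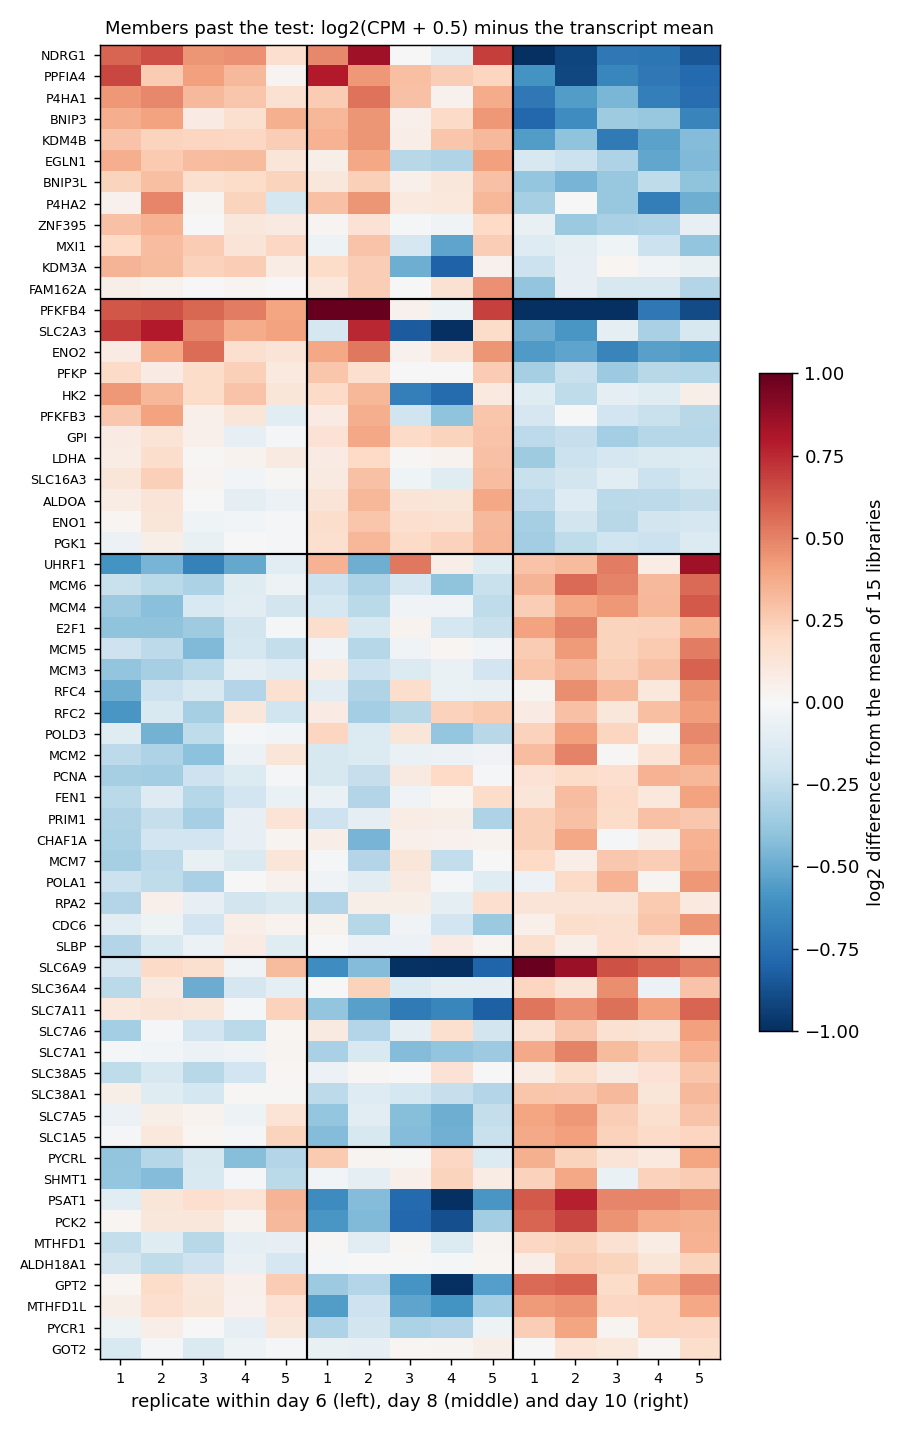
Levels of 62 list members past Q (each on a line) in the 15 libraries of days 6, 8 and 10, as log2 of CPM plus a pseudocount of 0.5, centred per transcript. Blocks from top to bottom hold the falling hypoxia and glycolysis members and the rising DNA replication, amino acid transporter and amino acid synthesis members. SLC6A9, SLC7A11, PSAT1 and PCK2 are lowest in the day 8 libraries.

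The day 8 departure was measured as day 8 minus the mean of days 6 and 10. By this measure 492 entries, 2.73% of those tested, stood above the midpoint and 505, 2.81%, below it. Without Day 8 replicates 3 and 4 these were 336 and 304. Below the midpoint were 10 of 19 amino acid transporters, 11 of 19 amino acid synthesis genes, 12 of 20 tRNA synthetases, 16 of 25 stress response genes and 26 of 44 ER folding genes. Without those libraries the counts were 10, 11, 12, 13 and 19. Above it were 13 of 25 glycolysis genes, 15 of 26 cholesterol genes and 8 of 22 hypoxia genes, and 15, 13 and 9 without those libraries. Another 5 of the 22 hypoxia genes stood below it, and 2 without those libraries.

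The widest single departures were PLXNA4, above the midpoint by 1.53 (SE 0.10, Q = 1.24e-14), and UNC13A, a synaptic vesicle priming gene, below by 2.38 (Q = 0.0271) at means of only 0.931, 0.170 and 0.863 CPM on days 6, 8 and 10. Respiratory chain genes above the midpoint went from 9 to 2 of 77 without those libraries, and mitosis genes from 8 to 0 of 45. Step by step, day 8 against day 6 gave 186 higher entries, 1.03%, and 275 lower, 1.53%, and 94 and 125 without Day 8 replicates 3 and 4. Day 10 against day 8 gave 915 higher, 5.08%, and 894 lower, 4.97%, and 713 and 741 without them. With all day 8 libraries, of the 58 entries called lower with a fold above 2, the day 8 mean lay between the other days in 37 and above day 6 in 21. Of the 19 called higher it likewise lay between them in 17 and above day 10 in 2.

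Proteasome and protein quality control genes showed small changes. Of 22 genes of the 19S regulatory particle, 6 rose and 0 fell, against 4.77% and 4.6% over all entries, with a median of 0.13. PSMD12 rose from 38.7 ± 1.8 to 48.4 ± 5 CPM (0.32 ± 0.08, Q = 0.0068). The count of 6 became 2 without Day 6 replicate 1 and 3 without Day 6 replicate 3, Day 10 replicate 4 or Day 10 replicate 5. Of 17 genes of the 20S core particle, 0 rose and 0 fell in edgeR, 1 was higher and 0 lower at an unadjusted p of 0.05, and DESeq2 called 0.

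Of 11 genes of the proteasome bounce-back, in which NRF1 rebuilds proteasomes, 2 rose and 1 fell. Over all entries 4.77% rose and 4.6% fell, and no change of this small list is read from its counts. The assembly chaperone PSMG1 rose by 0.42 ± 0.11 (Q = 0.00823). The protein-coding entry of UFD1L, a partner of the VCP segregase, rose by 0.51 ± 0.12 (Q = 0.00367), but its counts summed over biotypes read 0.09. VCP and its partner NPLOC4 read 0.15 ± 0.07 (Q = 0.198) and 0.14 ± 0.05 (Q = 0.0908). NGLY1, which deglycosylates NRF1, read -0.22 ± 0.06 (Q = 0.0153), a call lost without Day 6 replicate 2 or Day 10 replicate 1 (Q up to 0.0886).

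Of 44 ER folding and degradation genes, 5 rose and 2 fell, beside 4.77% and 4.6% over all entries. CREB3L2, a secretory pathway transcription factor, rose from 182 ± 15.7 to 230 ± 17.7 CPM (0.34 ± 0.06, Q = 4.7e-05), and the oxidase ERO1A, itself hypoxia-induced, fell by 0.39 (SE 0.08, Q = 0.00037). ERO1A read -0.24 summed over biotypes (Q = 0.00603). The count of 5 became 9 without Day 6 replicate 5. The ER chaperone HSPA5 read 0.12 ± 0.05 (Q = 0.14), and 0.15 with Q = 0.0499 without Day 10 replicate 1.

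Of 25 cytosolic heat shock chaperones, 1 rose and 2 fell, beside 4.77% and 4.6% over all entries, so no change of the list is read from these counts. HSPA8, the constitutive HSP70, fell from 613 ± 15.6 to 428 ± 23.6 CPM (-0.52 ± 0.06, Q = 2.72e-07). HSPA6, the strictly inducible HSP70, rose by 2.16 ± 0.50 (Q = 0.00303), from 0.128 to 0.983 CPM on day 6 to 0.969 to 3.27 on day 10. These ranges overlapped and the counts are low.

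Of 27 NRF2 targets, which answer oxidative stress, 6 fell and 2 rose, against 4.6% and 4.77% over all entries. The 6 became 3 without Day 6 replicate 3 or Day 10 replicate 5. The autophagy receptor SQSTM1 fell from 638 ± 37.7 to 484 ± 29.8 CPM (-0.40 ± 0.07, Q = 3.38e-05) with no overlap. Ferritin heavy chain, FTH1, read -0.22 ± 0.07 (Q = 0.0231), a call lost without Day 6 replicate 3 or Day 10 replicates 1 or 5 (Q up to 0.116). HMOX1 read -0.72 ± 0.20 (Q = 0.0167), lost without Day 10 replicate 3 (Q = 0.0576). GCLC, of glutathione synthesis, read 0.23 ± 0.06 (Q = 0.0169), lost without Day 6 replicate 3 or Day 10 replicate 3 (Q up to 0.0671).

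Lipid genes moved in both directions, beside 4.77% rising and 4.6% falling over all entries. Of 26 genes of cholesterol synthesis and uptake, 6 rose and 4 fell, and the 6 became 3 without Day 10 replicate 5. ACAT2 rose from 18.5 ± 2.35 to 27.2 ± 4.09 CPM (0.55 ± 0.11, Q = 0.000706) and MSMO1, whose product removes methyl groups from sterols with oxygen, fell from 57.1 ± 5.01 to 39.5 ± 5.35 (-0.53 ± 0.08, Q = 8e-06). The protein-coding entry of ACAT2 went from 62.5% to 72.8% of its counts, and the gene read 0.33 summed over biotypes (Q = 0.00236). Of 14 fatty acid synthesis genes, 4 rose and 1 fell, with the carboxylase ACACA up by 0.24 ± 0.05 (Q = 0.00169). The elongase ELOVL6 read -0.25 ± 0.07 (Q = 0.0114), lost without Day 10 replicate 1 (Q = 0.0534). Of 29 fatty acid oxidation genes, 4 rose and 0 fell, with SLC25A20, the acylcarnitine carrier, up by 0.36 ± 0.08 (Q = 0.000978).

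Of 77 nuclear-encoded respiratory chain genes, 1 rose and 1 fell, smaller shares than the 4.77% and 4.6% over all entries. Of 22 citrate cycle genes 2 rose and 0 fell, and of 13 mitochondrial genome genes 1 rose and 0 fell. No change of the citrate cycle or mitochondrial genome list is read from these counts. NDUFS1, NDUFB5, IDH3A and MT-CO2 were the members singled out, and each lost its call without at least 2 of the 10 libraries. MT-CO2 read 0.36 ± 0.10 (Q = 0.0133), lost without Day 6 replicate 2 or Day 10 replicate 2 (Q up to 0.0797). NDUFS1 read 0.17 ± 0.05 (Q = 0.0267), lost without Day 6 replicates 2, 3 or 5 or Day 10 replicate 5 (Q up to 0.108). NDUFB5 read -0.24 ± 0.07 (Q = 0.0135), lost without Day 6 replicate 3 or Day 10 replicate 5 (Q up to 0.0691). IDH3A read 0.51 ± 0.17 (Q = 0.045) in an entry that held 23.8% of its counts on day 6 and 28.9% on day 10, and 0.24 summed over biotypes (Q = 0.00545). Its call in the protein-coding entry was lost in 7 of the 10 fits (Q up to 0.188), all but those without Day 6 replicate 4 or Day 10 replicates 1 or 5. MRPL1, a mitochondrial ribosomal member, read 0.57 ± 0.17 (Q = 0.0222), lost without Day 6 replicates 3 or 4 or Day 10 replicates 1 or 3 (Q up to 0.0703). Its summed counts read 0.40 (Q = 0.043).

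Among BCL2 family, NF-kappaB and immediate-early genes, the members past Q mostly fell. Of 16 BCL2 family genes, 5 fell and 0 rose, against 4.6% and 4.77% over all entries. Those 5 were all of the BH3-only kind that promotes death. In 1 of the 16 all day 10 libraries lay below all day 6 libraries, against 4.04% over all entries. BCL2L11, which encodes BIM, fell from 152 ± 12.2 to 122 ± 5.8 CPM (-0.31 ± 0.05, Q = 0.000102), HRK by 0.54 (SE 0.12, Q = 0.00246) and PMAIP1 by 0.41 (SE 0.11, Q = 0.0106), while the survival gene MCL1 read -0.07 ± 0.05 (Q = 0.42). The count of 5 became 3 without Day 6 replicates 1, 2 or 3 or Day 10 replicate 5.

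Of 29 NF-kappaB factors and targets, 5 fell and 0 rose, against 4.6% and 4.77% over all entries. Among those that fell were CXCL8 and LTB, a lymphoid TNF-family ligand (-0.59 ± 0.13, Q = 0.00139). Of 34 immediate-early genes, 6 fell and 1 rose, and the 6 became 3 without Day 10 replicate 5. The orphan receptor NR4A1 rose by 0.42 ± 0.08 (Q = 0.000237), and FOSL2 read -0.46 ± 0.12 (Q = 0.0121), lost without Day 10 replicate 5 (Q = 0.0516).

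The p53, interferon and MHC lists had members past Q in both directions, beside 4.77% rising and 4.6% falling over all entries. Of 25 p53 pathway genes, 2 rose and 4 fell. SESN1 fell by 0.45 (SE 0.09, Q = 0.000375), the nuclease AEN rose by 0.36 ± 0.08 (Q = 0.00142) and CDKN1A read -0.28 ± 0.10 (Q = 0.0928), past Q without Day 6 replicate 4 or Day 10 replicate 2 (Q down to 0.0304). Of 42 interferon-stimulated genes, 5 rose and 2 fell, with OASL (0.98 ± 0.21, Q = 0.000996) and PARP9 (0.76 ± 0.13, Q = 9.57e-05) higher and IFI6 lower (-0.51 ± 0.11, Q = 0.00187). Of 13 MHC class I genes, 2 rose and 2 fell, with its activator NLRC5 up by 0.57 ± 0.15 (Q = 0.0089) and IRF1 down by 0.34 (SE 0.07, Q = 0.000305). NLRC5 and IRF1 read 0.42 (Q = 1.95e-05) and -0.27 (Q = 0.0019) summed over biotypes.

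Adhesion, lysosome and autophagy counts are set beside 4.6% falling and 4.77% rising over all entries. Of 22 adhesion and homing genes, 5 fell and 0 rose, with ALCAM down from 242 ± 41.4 to 164 ± 22.3 CPM (-0.56 ± 0.11, Q = 0.000277). Of 43 lysosome genes, 8 fell and 1 rose, with ATP6V1D, a proton pump subunit, down by 0.49 (SE 0.11, Q = 0.00125). The 8 became 5 without Day 6 replicates 1 or 2 or Day 10 replicates 1 or 5. The cathepsin CTSC read 0.17 ± 0.05 (Q = 0.0265), lost without Day 6 replicates 3 or 4 or Day 10 replicate 3 (Q up to 0.138). Of 26 autophagy genes, 4 fell and 1 rose. ULK1, which starts autophagy, fell by 0.34 (SE 0.07, Q = 0.00138). BECN1 read 0.23 ± 0.07 (Q = 0.02), lost without Day 6 replicate 1 or Day 10 replicate 2 (Q up to 0.0598).

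Metallothioneins, which bind zinc and copper, fell in 3 of 9 with 0 rising, against 4.6% and 4.77% over all entries. MT1X fell from 14.6 ± 3.13 to 7.69 ± 0.728 CPM (-0.92 ± 0.20, Q = 0.00127). MT1G went from 2.87 to 4.48 CPM on day 6 to 0.481 to 1.78 on day 10 (-1.52 ± 0.32, Q = 0.000944), and MT2A from 1.15 to 2.62 CPM to 0 to 0.808 (-2.20 ± 0.59, Q = 0.0112). None of these 3 overlapped, though the counts of MT2A are low and metallothionein genes share near-identical sequence.

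Over all entries 4.77% rose and 4.6% fell, and in lists of 11 a count of 1 or 2 is not read as a change. Of 11 iron handling genes, 2 rose and 0 fell, the transferrin receptor TFRC (0.38 ± 0.06, Q = 4.46e-05) and the ferrireductase STEAP3 (0.40 ± 0.08, Q = 0.000509). Of 11 drug efflux transporters, ABCG2 fell by 0.25 (SE 0.07, Q = 0.0101) and 0 rose. Of 6 MondoA factors and targets, which respond to glucose phosphates, 3 fell and 0 rose. ARRDC3 fell by 0.39 (SE 0.09, Q = 0.00287). TXNIP, which restrains glucose uptake, averaged 2474 ± 285 CPM on day 6 and 2024 ± 144 on day 10 (-0.29 ± 0.09, Q = 0.0262), against 362 on day 0. Its days overlapped and the call was lost without Day 6 replicates 3, 4 or 5 or Day 10 replicates 1, 2 or 5 (Q up to 0.103).

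**Figure D5:**
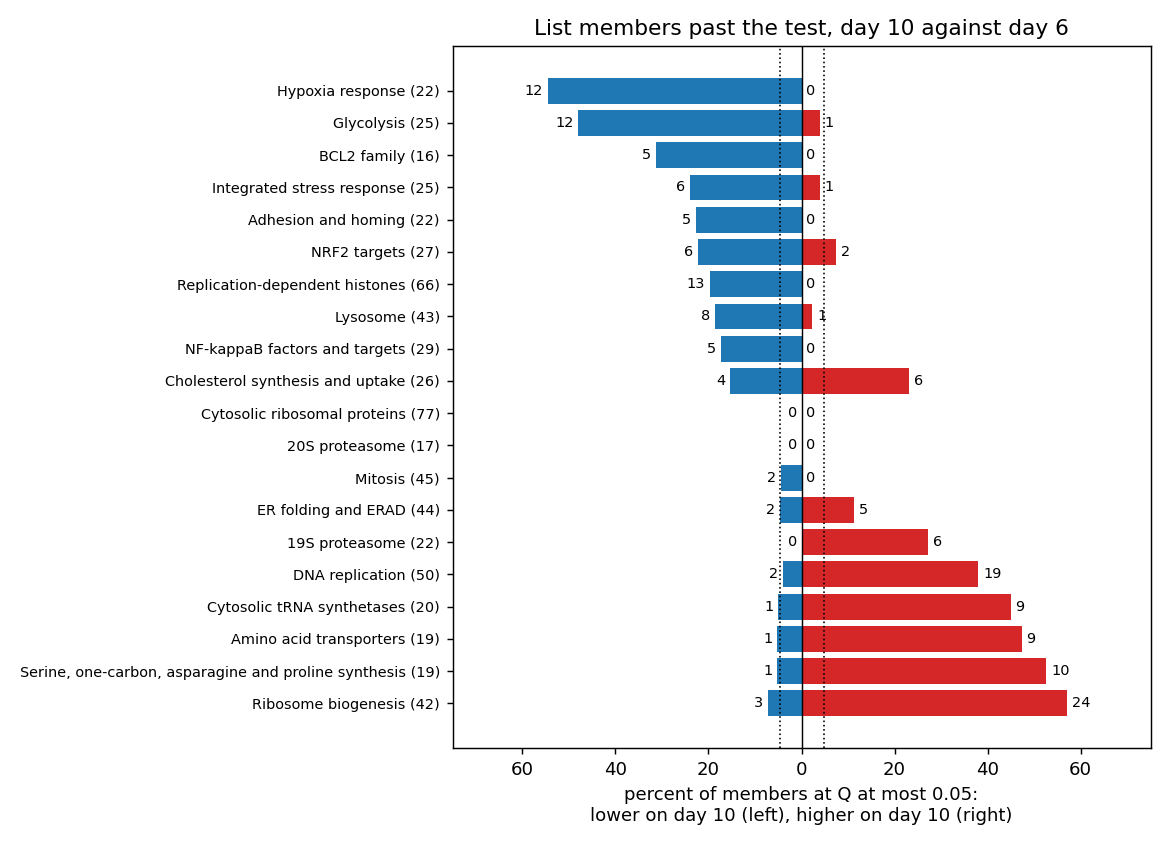
Share of each gene list's tested members past Q on day 10 against day 6 (x axis, percent), for 20 lists with their sizes in brackets. Blue bars to the left are fallen and red bars to the right risen members, dotted lines mark the shares over all entries, 4.6% and 4.77%, and the longest bars are hypoxia, 12 of 22, and ribosome biogenesis, 24 of 42.

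The rises with a fold above 2 that were clear of overlap were few. SPP1 (chr4:87975667-87983532, plus strand) encodes osteopontin, a secreted bone matrix protein. It read 396, 399, 402, 362 and 237 CPM on day 6 and 540, 750, 921, 823 and 712 on day 10 (1.06 ± 0.13, Q = 1.37e-07). All day 10 values lay above all day 6 values, and the day 8 libraries were at 453 to 792. LEF1, a Wnt pathway transcription factor, and ACSM5, an acyl-CoA synthetase, read 1.22 ± 0.35 (Q = 0.0187) and 1.03 ± 0.33 (Q = 0.04) at day 10 means of 3.02 and 3.96 CPM. Summed over biotypes they read 0.40 (Q = 0.224) and 0.89 (Q = 0.0222). The call on LEF1 was lost without Day 6 replicates 2 or 4 or Day 10 replicate 3 (Q up to 0.0609), and that on ACSM5 without Day 6 replicates 1, 2 or 4 or Day 10 replicates 1, 2 or 5 (Q up to 0.12).

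By smallest p, the leading rises included MCM6, MCM3, RRP12, DEPTOR and GEMIN5. DEPTOR, an inhibitor of mTOR that myeloma cells often express highly, read 169, 175, 170, 174 and 199 CPM on day 6 and 249, 272, 238, 249 and 251 on day 10 (0.50 ± 0.05, Q = 7.44e-10). GEMIN5, which loads small nuclear RNAs with SMN, rose by 0.56 ± 0.06 (Q = 1.37e-08). In neither DEPTOR nor GEMIN5 did the days overlap.

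Of 24 plasma cell identity genes, 2 rose and 1 fell, beside 4.77% and 4.6% over all entries. No change of the list is read from these counts. The summed level of its members was 21319 to 22416 CPM on day 6 and 20833 to 22673 on day 10. IRF4, XBP1 and SDC1 read -0.15 ± 0.06 (Q = 0.149), 0.11 ± 0.05 (Q = 0.232) and 0.14 ± 0.06 (Q = 0.0996), the last past Q without Day 6 replicate 5 (Q = 0.0374). GPRC5D, a myeloma surface receptor, rose by 0.72 ± 0.20 (Q = 0.0134), a call lost without Day 10 replicate 5 (Q = 0.0541). MAF, driven by the translocation of this line, read -0.14 ± 0.05 (Q = 0.045), lost in 9 of 10 fits that each left out a library, all but that without Day 6 replicate 3 (Q up to 0.158).

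Markers of other cell types had 0 members past Q. Summed levels were 9.84 to 16.1 CPM on day 6 and 10.3 to 14.2 on day 10 for T and NK cells, 0.144 to 1.76 and 0 to 0.808 for myeloid cells, and 2.35 to 3.95 and 2.75 to 4.65 for erythroid cells. They were 0.431 to 1.22 and 0.458 to 1.23 CPM for stromal cells, 64.6 to 78.4 and 58.8 to 68.3 for B cells, and 72.5 to 95.4 and 82.5 to 95.9 for epithelial cells, the last almost all from EPCAM. CD3D, MPO, COL3A1 and KRT14 were at 0 in every library of both days.

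Library composition showed no difference past p = 0.05 in exact permutation tests, whose smallest possible two-sided p with 5 against 5 is 0.00794. The mean library total was 8636570 on day 6 and 7867950 on day 10 (exact p = 0.127). Without Day 10 replicate 2 the exact p was 0.0397. Mitochondrial genome genes took 5.46% ± 0.602 (SD, n = 5) of counts on day 6 and 6.20% ± 0.851 on day 10 (exact p = 0.167), and 0.0238 was the exact p without Day 10 replicate 3. Cytosolic ribosomal protein genes took 9.37% and 9.04% (exact p = 0.206). The 10 most abundant protein-coding entries took 9.74% and 9.96% (exact p = 0.619), a difference that turned to -0.0562 percentage points without Day 10 replicate 2. Protein-coding entries took 80.6% and 81.1% (exact p = 0.437). These shares were measured beside the list results and their part in them was not tested.

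Day 0 is used here as the baseline: the study's methods place its collection before carfilzomib, while the sample labels list the treatment for day 0 too. Both days were compared with the same day 0 libraries. On day 6, 3143 entries were higher than on day 0, 17.5%, and 3066 lower, 17%. On day 10, 2895 were higher, 16.1%, and 2850 lower, 15.8%. In the hypoxia list 19 of 22 members were higher than day 0 on day 6 and 10 on day 10, and 0 and 3 were lower. In ribosome biogenesis 25 of 42 were lower than day 0 on day 6 and 14 on day 10. In DNA replication 21 of 50 were higher on day 6 and 40 on day 10, and in mitosis 43 of 45 on each.

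The study sorted transcripts into 6 clusters by their time course in these same libraries, so their counts are not independent evidence. The shares over all entries were 4.77% higher and 4.6% lower. The first held 87 entries higher and 14 lower of 409, the next 97 and 16 of 486, and the third 56 and 35 of 344. The fourth held 15 and 120 of 436, the fifth 10 and 92 of 549 and the last 27 and 58 of 318.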

How the data were processed

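Total RNA from RPMI-8226 cells was sequenced as stranded paired-end libraries, with 5 per day on 7 days. Per the labels and the study's methods, the authors estimated transcript counts with kallisto 0.44.0 on a GENCODE annotation of GRCh38.p12, summed them per gene symbol and biotype with a length adjustment, and used DESeq2 1.25.8 in R 3.5.0. The deposited values are estimated counts. They were rounded to whole numbers here before the fit, and 0 sample columns were left unused.

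The counts of all 17999 protein-coding entries with any count after rounding were fitted with edgeR 4.0.16 in R 4.3.3. The fit used TMM scaling, a factor for day over all 35 libraries and the quasi-likelihood test. Calls used a Benjamini-Hochberg Q of 0.05 and, where stated, a fold above 2. The SE given with a log2 fold change was worked back from the test, as its absolute value over the square root of the F statistic. CPM are counts scaled to a common library size by TMM and are not scaled by length, so they compare days and not genes. Day 10 minus day 6 and day 8 minus the mean of both were contrasts of this fit. Library composition was compared with exact permutation tests, two-sided. The script was tested on simulated data. DESeq2 1.42.0, other scalings, a count filter, fits of the compared libraries only, fold limits, a replicate block and leaving out each library were tried. Summing over biotypes, leaving out Day 8 replicates 3 and 4, and shares of protein-coding counts were added after seeing the data.

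The question, the 44 gene lists and the use of 6 clusters of the study were chosen with earlier results of these data known. Named genes were the 12 largest rises and falls called with no overlap and a mean log2 CPM above 0, the 6 smallest p in each direction, the largest rise and fall past Q in each list, a fixed set of stress and identity genes, and the largest departures on day 8. NDRG1, P4HA1, BNIP3, BNIP3L, PPFIA4, SLC2A3, ENO2, LDHA, EGLN1, KDM3A, VEGFA, CA9, HK2, E2F1, PCNA, MCM2, MCM4, MCM5, MCM7, RRM2, NCL, NOP2, NPM1, SLC7A11, PSAT1, PCK2, ATF3, PMAIP1, BCL2L11, MCL1, LTB, HSPA5, SQSTM1, FTH1, CDKN1A, PSMG1, MT1X, TFRC, PARP9, DDX5, PRPF4B and COX11 were named after their values were seen, some of them also by the rule. A gene that the rule names is not reported here. Same-numbered libraries of days 6 and 10 did not deviate together (r from -0.0151 to 0.0661), so numbers were not used as pairs. No library repeated another of its day: the lowest chi-square per degree of freedom between 2 libraries was 3.19. Counts are reads and not molecules, so depth covers counting error only. Promoter sequences are from RefSeq on GRCh38.p14, matched by symbol, and gene positions from GENCODE 44.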

Additional observations from a re-analysis of the deposited data

Results flagged for a closer look

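In 12 of 270 groups of 5 libraries (135 named genes on days 6 and 10), the highest or lowest library stood apart from the other 4 by Dixon's criterion, and chance alone is set to give about 1 in 20. On day 6, replicate 5 held the outlying CPM of SPP1 at 237 (others 362 to 402), DEPTOR at 199 (169 to 175), HMOX1 at 5.74 (10.7 to 11.5), KIF2C at 73.5 (61.1 to 63.1) and PCK2 at 91.9 (74.2 to 79.3). Day 6 replicate 4 held that of ATF3 at 25 (27.9 to 28.2). On day 10, replicate 1 held those of VCP at 86.9 (100.3 to 104), BCL2L11 at 133 (119 to 122) and NCL at 795 (861 to 877), replicate 3 those of CTSC at 167 (141 to 146) and NR4A1 at 18.4 (22.6 to 22.9), and replicate 5 that of MCM3 at 248 (194 to 209). Leaving out the outlying library changed the call on CTSC and KIF2C, as given with those genes, and on none of the other 10.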

How the results depend on the processing

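Of 77 transcripts called, 39 were called with DESeq2's shrunken fold changes (4 higher and 35 lower), 21 at an absolute log2 fold change of 2 and 1686 with no fold limit. For the day 8 midpoint, 43 called became 14 and 997 under the same limits, and the 505 below it became 304 without Day 8 replicates 3 and 4. ER folding members that rose, 5, became 8 with no scaling, 10 with DESeq2 and 9 with its shrunken fit. Leaving out each library of days 6 and 10 in turn gave 60 to 83 called, 13 to 23 higher and 44 to 63 lower, 684 to 915 higher and 566 to 769 lower at Q alone, and for the midpoint, with day 8 libraries also left out in turn, 31 to 47 called, 390 to 578 above and 364 to 521 below. List counts then ran 2 to 7 for 19S, 3 to 6 for NRF2, 5 to 9 for ER folding, 3 to 6 for the stress response, 3 to 9 for cholesterol, 4 to 9 for mitochondrial ribosomal proteins, 3 to 5 for BCL2, 3 to 7 for immediate-early genes, 5 to 7 for lysosome, 9 to 14 for hypoxia, 9 to 13 for glycolysis, 17 to 23 for DNA replication and 23 to 25 for ribosome biogenesis. Signs turned for SSPO (0.022 summed over biotypes), UNC13A (0.039 without Day 6 replicate 4 and 0.0051 without Day 10 replicate 2, in a range from -0.335) and the share of the 10 most abundant entries (-0.0562 percentage points without Day 10 replicate 2, in a range up to 0.412). The causes were not tested. Across 135 named genes, 2409 of 2556 values under alternatives kept direction and side of the threshold, 122 lost the call and 22 gained it. With the replicate number as a block, 69 were called, 880 higher and 848 lower at Q and 38 for the midpoint, and of the named genes only NPLOC4 changed its call. A fit with no scaling moved the share of higher calls from 50.9% to 56.1%, and the median log2 fold change of well-counted transcripts from -0.01 to 0.01. At library totals of 6979280 to 9744769, calls on transcripts near or under 1 CPM rest on few reads.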
